A study of Mus musculus with 14 samples.

Results

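The regions described here carried a methylation peak in all 8 mouse induced pluripotent stem (iPS) cell clones and in the C57BL6 embryonic stem (ES) cell line, and in neither ES cell line of a 129 strain. Peaks of all 14 samples were joined into regions wherever they overlapped by 1 bp or more on chromosomes 1 to 19, and 10763 of the 147237 joined regions had this pattern. They made up 22.7% of the 47377 regions that carried a peak in all 8 iPS clones and in the C57BL6 ES line, referred to as carried regions. The members were selected on the presence and absence of peaks, so these peaks describe the selection and were not tested.

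The samples were 4 Aid+/+ iPS clones and 4 Aid-/- iPS clones at passage 6, 3 Aid+/+ mouse embryonic fibroblast (MEF) cultures at passage 3, and the ES lines RF8 (129SV, passage 19), MG1.19 (129Ola) and B6 ES (C57BL6). The iPS cells and MEFs were of 1 mixed C57BL6, DBA and 129S4 background. The iPS cells were made from MEFs with retroviral Oct3/4, Sox2, Klf4 and c-Myc, carried a Nanog-GFP reporter, were selected with puromycin and were expanded from single colonies, so each is 1 clone. In Aid-/- cells Aid is disrupted, and Aid+/+ cells carry it. B6 ES is the only non-129 ES line, so that strain, line and culture history cannot be told apart in the comparison of ES lines.

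MBD-seq enriches fragments of sheared DNA that bind a protein domain with affinity for methyl-CpG, and a peak of sequence tags marks a stretch that holds methylated CpGs. Methylation of CpGs in the mouse genome is dense over interspersed and tandem repeats, where it takes part in keeping transposable elements silent, and sparse over most CpG-rich promoters. In ES cells, DNA methylation varies with the line and the culture medium. A repeat is a special case for sequencing, because tags from near-identical copies cannot be assigned to 1 copy with certainty.

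The 4 most CpG-rich windows among the 8 strongest members are shown first, because they display the kinds of sequence that carried a strong peak in 9 samples without a peak in the 129 ES lines. The strength of a member is the significance of its weakest peak among these 9 samples, as 10 times the −log10 of its p-value. Each sequence is the plus strand of NCBI build 37 (mm9), 200 bp about the summit of the B6 ES peak, with every CpG in capitals. Copy number is the median over the window of how often each stretch of 32 bases occurs in the genome on either strand. The chromosome 11 window (chr11:113080994-113081193, intergenic) held 22 CpGs in a run of GT and CG dinucleotides and had a copy number of 1. The chromosome 1 window (chr1:20476529-20476728, an intron of Pkhd1) held 14 CpGs and had a copy number of 2726. The chromosome 2 window (chr2:28249453-28249652, intergenic) held 14 CpGs in a unit repeated head to tail and had a copy number of 9, and the chromosome 17 window (chr17:51429295-51429494, intergenic) held 11 CpGs and had a copy number of 5.
chromosome 11, near Slc39a11: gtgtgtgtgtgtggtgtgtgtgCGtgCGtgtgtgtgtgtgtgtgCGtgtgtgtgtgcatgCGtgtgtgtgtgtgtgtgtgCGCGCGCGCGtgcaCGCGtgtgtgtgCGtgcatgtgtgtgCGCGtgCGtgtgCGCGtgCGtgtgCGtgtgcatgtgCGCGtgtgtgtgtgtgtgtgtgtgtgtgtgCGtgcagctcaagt
chromosome 1, Pkhd1: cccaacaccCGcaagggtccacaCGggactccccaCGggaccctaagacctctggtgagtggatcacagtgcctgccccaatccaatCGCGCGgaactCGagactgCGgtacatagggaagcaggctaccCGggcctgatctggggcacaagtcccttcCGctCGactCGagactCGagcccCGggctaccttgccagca
chromosome 2, near Gm347: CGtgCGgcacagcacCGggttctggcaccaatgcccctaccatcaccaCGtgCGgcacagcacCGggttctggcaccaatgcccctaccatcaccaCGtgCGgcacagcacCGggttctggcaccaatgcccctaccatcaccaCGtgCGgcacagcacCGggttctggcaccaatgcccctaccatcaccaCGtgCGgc
chromosome 17, near Tbc1d5: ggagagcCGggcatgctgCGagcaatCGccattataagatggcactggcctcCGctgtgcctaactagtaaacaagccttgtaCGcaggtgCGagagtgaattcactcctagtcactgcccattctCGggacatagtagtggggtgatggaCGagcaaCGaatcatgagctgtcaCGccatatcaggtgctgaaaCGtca

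A further 4 sequences, words of 32 bases, are shown because they marked nearly all members of high copy number. They were found on the members themselves, in turn, among members with a copy number of 1000 or more. Each is the word present near the most summits of such members that held no earlier word. This was so for word 2 in 56 of 97 remaining members, word 3 in 12 of 35 and word 4 in 9 of 19. Ties among 2, 4 and 116 words for words 2, 3 and 4 were broken by alphabetical order. Counts by word are therefore descriptions. Of the 787 members of that copy number, 551 (70.0%) held word 1 within 100 bp of the summit, and 777 held at least 1 of the 4 words in the region. The Pkhd1 window above holds word 1.
word 1: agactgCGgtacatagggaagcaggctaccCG
word 2: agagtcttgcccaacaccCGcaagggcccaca
word 3: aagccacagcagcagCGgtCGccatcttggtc
word 4: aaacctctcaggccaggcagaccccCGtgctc

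The samples differed in depth and in the share of tags that fell into peaks. After removal of duplicates, 6.65 to 15.9 M tags (M, mega, as in Mb) remained in the iPS clones, 15.5 M in B6 ES and 17.5 to 19.6 M in the MEFs. RF8 had 10.2 M and MG1.19 14.8 M, both within the range of the iPS clones. Tag counts of single regions are given below as deposited, not scaled for depth. Values per M filtered tags are added at members where they change how the MEFs lie against the iPS clones. The share of these tags in peaks was 49.6 to 62.5% in the iPS clones and 54.5% in B6 ES, but 32.7% in RF8, 16.7% in MG1.19 and 19.2 to 27.4% in the MEFs. Autosomal peaks numbered 65859 to 106408 in the iPS clones, 101951 in B6 ES, 56045 in RF8 and 31650 in MG1.19. Promoter peaks at 11 pluripotency genes and 12 fibroblast genes were counted as a check on the cell labels, since a methylated promoter is often a silent one. Nanog had a promoter peak in MEF replicates 1 and 2 and in no iPS or ES sample, whereas the promoter of the collagen gene Col1a1 had a peak in all 8 iPS clones and B6 ES and in no MEF. Pou5f1 and Sox2 had promoter peaks in all 8 iPS clones and in no other sample. By pyrosequencing, however, the paper found the Pou5f1 promoter hypomethylated in iPS cells of both genotypes. Esrrb had a promoter peak in all 3 MEFs but also in B6 ES and 4 iPS clones, and Utf1 had one in 3 iPS clones. In all, 2 to 4 of the 11 pluripotency promoters had a peak in the iPS clones, 1 in B6 ES, 0 in RF8 and MG1.19 and 1 to 3 in the MEFs, so that the list as a whole did not separate MEFs from iPS cells. The iPS clones carry retroviral copies of Pou5f1 (Oct3/4) and Sox2, and tags of such copies and of the endogenous exons cannot be told apart. The peaks at Pou5f1 and Sox2 therefore do not show that the endogenous promoters were methylated.

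Among the 47377 carried regions, 21834 (46.1%) had a peak in all 3 ES lines, 13734 (28.99%) had one in RF8 but not MG1.19, and 1046 (2.21%) had one in MG1.19 but not RF8. The members were the weaker part of the carried regions. Their median strength was 97.1, against 135.1 for regions that only MG1.19 lacked and 300.8 for regions shared by all 3 ES lines. Their median length was 985 bp, against 1176 bp for shared regions. The share of carried regions that were members fell from 48.1% at a strength of 50 to 75 to 5.45% (303 of 5557) at 500 or more. At 200 or more it was 8.41% (1815 of 21588). Taking the same number of most significant peaks from every sample, 31650 each, left 2113 members of 16805 carried regions (12.6%). Without RF8 the count rose to 24497 and without MG1.19 to 11809, so the count rested on the peaks of RF8 more than on those of MG1.19.

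The pattern in the opposite direction was rare. A peak in B6 ES and in neither 129 line was present at 49883 regions, of which 10763 (21.6%) were in all 8 iPS clones and 7168 (14.4%) in none. A peak in both 129 lines and not in B6 ES was present at 761 regions, of which 88 (11.6%) were in all 8 iPS clones. Where the B6 ES peak reached a significance of 500 or more, 2228 of 3253 regions (68.5%) were members. The numbers of peaks in the lines differed as given above, and their part in this asymmetry was not tested. On the X chromosome, 329 of 1736 carried regions had the pattern of the members.

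Most members were single-copy sequence, but most of those with a strength of 500 or more were not. A copy number of 1 was found for 7830 members (72.7%) and of 1000 or more for 787 (7.31%). Median strength was 89.7 in the former and 399.3 in the latter. Of carried regions with a copy number of 1, 25.7% were members, and at a strength of 500 or more this share was 1.17%. Of those with a copy number of 1000 or more, 41.1% were members, and 26.6% at a strength of 500 or more. High copy number at that strength was not particular to the members. It was found in 77.9% of members, 55.9% of regions that only MG1.19 lacked and 6.31% of regions shared by all 3 ES lines. The share of members was 26.6% for windows with 0 to 5 CpGs in 200 bp and 28.4% for 6 to 8, and declined to 6.02% for 16 or more. The median strength of the carried regions in these 3 classes was 94.3, 109.8 and 393.2. CpG content thus rose together with strength, and their parts in the decline were not tested.

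Regions holding word 1 or word 2 were more often members than other carried regions. Both words were found on members, so a raised share is partly built in, and the shares are descriptions. Among all carried regions with a copy number of 1000 or more, 41.1% were members. Of 2114 regions holding word 1 or 2, 1283 (60.7%) were members, compared with 9408 of 44950 regions (20.9%) that held none of the 4 words. The difference was present at each level of strength. It was 95.2% against 47.4% at a strength of 50 to 75, 74.5% against 9.77% at 200 to 300, and 31.8% against 0.806% at 500 or more. Of the 303 members with a strength of 500 or more, 265 held word 1 or word 2. With the same number of peaks in every sample, the shares were 75.9% (946 of 1247) for regions holding word 1 or 2 and 7.50% (1167 of 15558) for all other regions. The plot of member share by peak significance shows both classes.

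**Figure D1:**
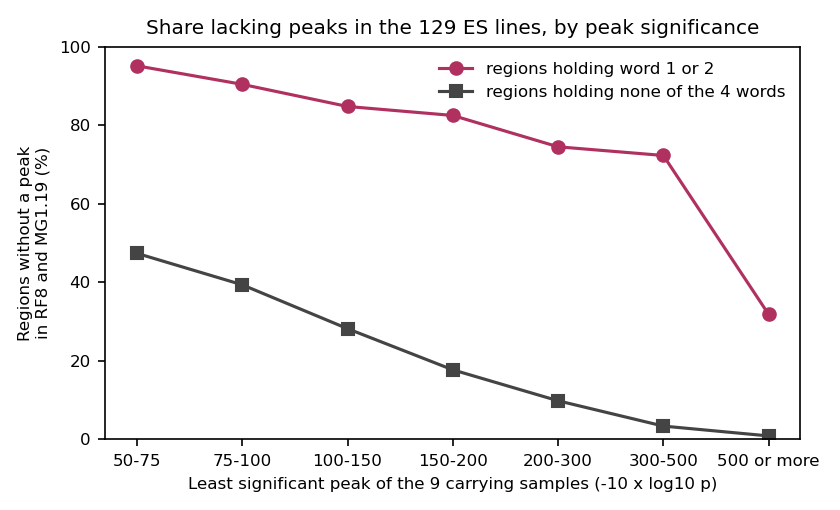
Share of carried regions that lack a peak in both 129 ES lines (vertical axis, %) in 7 bins of the least significant peak of the 9 carrying samples (horizontal axis, 10 times −log10 p). Words 1 and 2 were found on members, so the difference between the classes is partly built in. Circles are regions holding word 1 or 2 and squares regions holding none of the 4 words; circles lie above squares in every bin, from 95.2% against 47.4% to 31.8% against 0.806%.

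The loci of word 1 were also counted in every sample, whether or not they were members. The word was found on the members and 1049 members hold it, so its shares in the iPS clones and ES lines are partly fixed by the selection and are descriptions. Word 1 occurred 4716 times on chromosomes 1 to 19, at 1953 loci when occurrences within 10 kb were joined. A peak covered 95.9 to 98.8% of these loci in the iPS clones and 95.8% in B6 ES, but 35.9% in RF8 and 13.4% in MG1.19. In MEF replicates 1, 2 and 3 the share was 82.2, 86.7 and 52.4%. The MEF shares, which the selection did not use, lay below those of all iPS clones. Where RF8 and MG1.19 did have a peak over word 1, it was low, with a median of 19 and 21 tags per region and a median fold enrichment of 9.82 and 8.74. B6 ES had a median of 91.5 tags and a fold enrichment of 17.3 there. The run names in the file headers of the 3 ES lines, MEF replicate 1 and Aid-/- iPS replicate 3 lack a suffix that those of the other 9 samples carry. Its meaning is not given in the sources used here, and its part in values of repeated sequence was not tested.

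Word 3 and word 4 had other distributions. Word 3 occurred at 1721 loci, with a peak at 97.7 to 99.5% of them in the MEFs and at 94.8% in B6 ES. In the iPS clones the share ranged from 12.6% in Aid+/+ replicate 2 to 72.5% in Aid-/- replicate 4, and it was 25.5% in RF8 and 1.10% in MG1.19. The 129 lines lay within or below the range of the iPS clones at word 3, unlike at word 1. Only 90 carried regions held word 3, and 19 of these were members. Word 4 occurred at 235 loci, with a peak at 97.02% or more of them in the iPS clones, B6 ES and the MEFs, 66.0% in RF8 and 55.7% in MG1.19. Of the 223 carried regions with word 4, 53 (23.8%) were members.

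**Figure D2:**
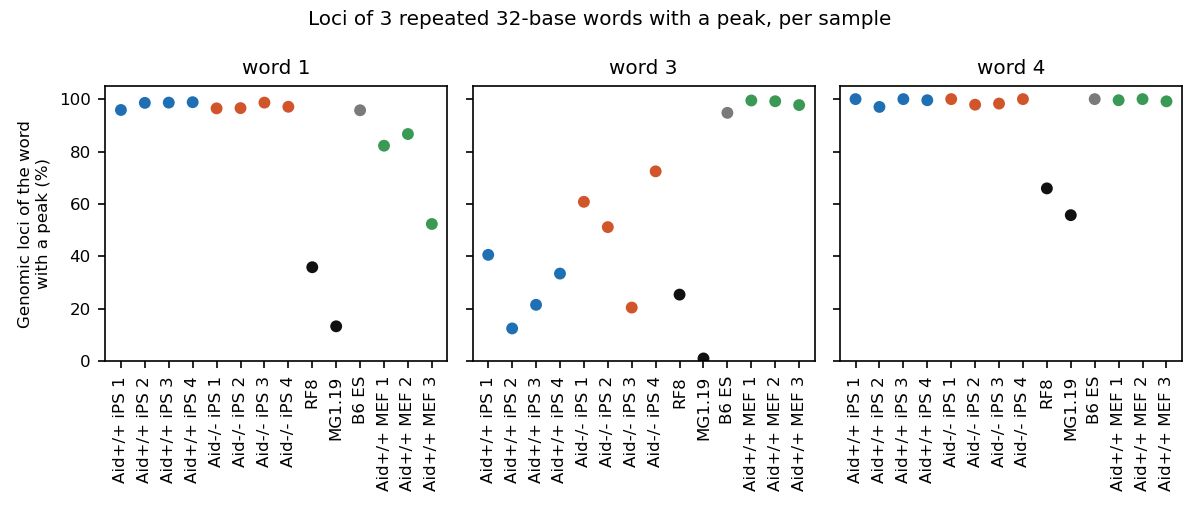
Share of the genomic loci of words 1, 3 and 4 that had a peak (vertical axis, %) in each of the 14 samples (1 point per sample, coloured by group). For word 1, RF8 (35.9%) and MG1.19 (13.4%) lie below all other samples; for word 3, the iPS clones spread from 12.6 to 72.5% while the MEFs lie at 97.7% or more; for word 4, RF8 (66.0%) and MG1.19 (55.7%) lie below the others.

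The 8 strongest members came from both classes. The strongest, chr2:28248777-28250170 (strength 1544.7), lay 52.8 kb from the predicted gene Gm347. It had 266, 356, 437 and 270 tags in the Aid+/+ iPS clones, 329, 254, 248 and 282 in the Aid-/- iPS clones, 228 in B6 ES and 141, 150 and 92 in the MEFs. All 9 carrying samples were above the 3 MEFs, and the iPS genotypes overlapped. The next, chr11:113080376-113081687, lay 25.1 kb from Slc39a11, which encodes a zinc transporter. It had 578, 281, 290 and 184 tags in the Aid+/+ iPS clones, 470, 397, 194 and 356 in the Aid-/- iPS clones, 370 in B6 ES and 432, 414 and 535 in the MEFs. Here the MEFs fell within the range of the iPS clones. Their windows are the chromosome 2 and chromosome 11 sequences printed above.

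Another 3 of the 8 were of low copy number, with MEF tag counts inside the range of the iPS clones. The member chr9:40986536-40987643, 17.3 kb from Ubash3b, which encodes a regulator of T-cell receptor signalling, had 170 to 342 tags in the iPS clones (median 267), 275 in B6 ES and 267, 228 and 255 in the MEFs. The member chr9:100999276-101000456, in an intron of Msl2, which encodes a ubiquitin ligase of a histone acetyltransferase complex, had 138 to 273 tags in the iPS clones (median 229), 252 in B6 ES and 268, 224 and 208 in the MEFs. At both members the MEF counts lay within the range of the iPS clones, with MEF fold enrichments of 30.8 to 40.7 at Ubash3b and 35.6 to 39.7 at Msl2. Per M filtered tags, however, the MEFs had 13.019 to 14.0025 tags at Ubash3b, below the 17.7 to 27.7 of the iPS clones. The member chr17:51428882-51429994, 110.7 kb from Tbc1d5, which encodes a Rab GTPase-activating protein, had 150 to 331 tags in the iPS clones (median 246), 304 in B6 ES and 233, 178 and 163 in the MEFs. Its MEF counts were in the lower part of the iPS range, and per M filtered tags the MEFs (8.95 to 11.9) were below all iPS clones (18.5 to 26.7).

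The remaining 3 held word 1 or 2 and had copy numbers of 2202 to 2726. The member in an intron of Pkhd1, whose product fibrocystin is mutated in recessive polycystic kidney disease (chr1:20475954-20478133), had 252 to 505 tags in the iPS clones (median 384), 293 in B6 ES and 199, 220 and 86 in the MEFs. The member in an intron of Gm16429 (chr5:94483511-94485717) had 278 to 548 tags in the iPS clones (median 428), 319 in B6 ES and 215, 209 and 71 in the MEFs. The member nearest to Gm4736, at 183.3 kb (chr6:131880321-131882153), had 209 to 373 tags (median 312.5), 219 in B6 ES and 164, 169 and 69 in the MEFs. At all 3, every iPS clone was above every MEF, and MEF replicate 3 was the lowest sample with a peak. Fold enrichment in the iPS clones was 9.41 to 16.4 at these 3 members, below the 20.5 to 44.4 of the strong members without the words near Slc39a11, Ubash3b, Tbc1d5 and Msl2.

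**Figure D3:**
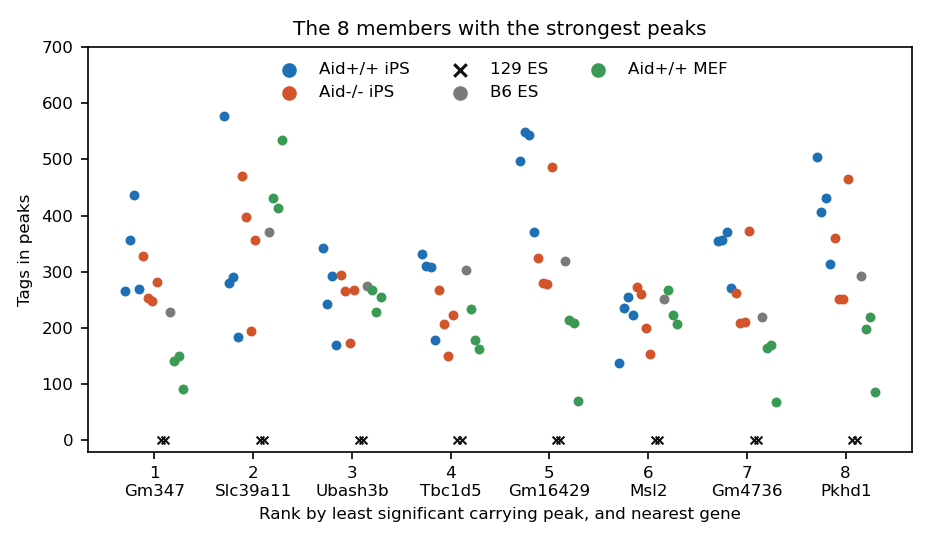
Tags in peaks (vertical axis) at the 8 strongest members (horizontal axis, rank and nearest gene), 1 point per sample coloured by group; crosses at 0 mark RF8 and MG1.19, which have no peak there by selection. Counts are not scaled for depth. The MEFs lie within the iPS range at Slc39a11, Ubash3b, Tbc1d5 and Msl2 and at or below its lower end at Gm347, Gm16429, Gm4736 and Pkhd1.

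At the other end, the weakest members were close to the significance limit of 50 in at least 1 sample. The weakest lay in an intron of Esrrg, which encodes an oestrogen-related nuclear receptor (chr1:189560100-189560834, strength 50.01), with 14 to 30 tags in the iPS clones (median 22), 42 in B6 ES and no peak in any MEF. The next lay over the promoter of Gm4775 (chr14:106499763-106500706, strength 50.02), with 20 to 55 tags in the iPS clones (median 36), 46 in B6 ES and 26 in MEF replicate 2 only. A region just outside the rule, 4.80 kb from 1700047G07Rik (chr8:99030935-99031791), was set apart by 1 weak peak in MG1.19, of significance 50.02. It had 14 tags in MG1.19 and 11 to 27 in the iPS clones. Absence of a peak in a 129 line therefore meant a signal under the caller's limit, not a measured absence of methylation.

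The MEF state was left free by the rule. No MEF had a peak at 3853 members (35.8%), 1 MEF at 2438 (22.7%), 2 MEFs at 2373 (22.05%) and all 3 MEFs at 2099 (19.5%). For regions shared by all 3 ES lines these shares were 6.98% for no MEF and 66.8% for all 3 MEFs. Members of higher strength had MEF peaks more often, with all 3 MEFs carrying 9.99% of members at a strength of 50 to 75 and 89.8% at 500 or more. Shared regions of the same strengths had 25.7% and 98.3%. MEF replicates 1, 2 and 3 carried 46.2, 57.5 and 21.5% of the members. Replicate 3 also had the fewest peaks of the MEFs.

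Members with a peak in every MEF entered a comparison of tag counts between 4 Aid+/+ iPS clones and 3 Aid+/+ MEFs, in which 23316 regions of all chromosomes were tested with edgeR's quasi-likelihood test and adjusted over all of them. All regions tested had a peak in each of the 7 samples, so the members that at least 1 MEF lacked could not enter. No processing run held samples of both groups, and run and cell type cannot be told apart. Of the 2099 members tested, 706 (33.6%) were higher in MEFs and 389 (18.5%) lower at an adjusted p under 0.05, against 23.8% and 19.5% of all regions tested, or 43.2% in either direction. At an unadjusted p under 0.05, 1279 members (60.9%) passed, against 52.5% of all regions. The median log2 change of the members was 0.26, against -0.05 for all regions. The direction depended on the scaling. With the total tags of the file headers as library size, 376 members were higher and 486 lower, and the median of all regions shifted to -0.51. When fold enrichment was compared with limma, 96 members were higher and 673 lower.

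Members with word 1 or 2 were mostly lower in MEFs under every scaling. Those with word 3 or 4 were mostly higher on tag counts, but few were called on fold enrichment. Tags of near-identical copies cannot be assigned to 1 copy, so the counts below are not of independent regions. Of 404 tested members with word 1 or 2, 285 were lower in MEFs and 1 was higher, with a median log2 change of -0.69. Under the header scaling 298 were lower and none higher, and under limma on fold enrichment 198 were lower and none higher. Of 19 members with word 3, 18 were higher in MEFs, with a median of 2.81, and of 53 with word 4 all 53 were higher, with a median of 2.97. The header scaling gave 18 and 52 higher. On fold enrichment, only 7 of the word 3 members and 2 of the word 4 members were higher and 1 of each was lower, with medians of 0.30 and -0.03. Of 1623 tested members with none of the words, 634 were higher and 104 lower, but 306 and 188 under the header scaling, and 87 and 473 on fold enrichment.

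The tag counts behind these medians differed between the classes in every MEF. Members with word 4 had a median of 30 to 61 tags in the iPS clones, 57 in B6 ES and 273, 228 and 155 in the MEFs. Members with word 3 had a median of 17 to 37 tags in the iPS clones, 76 in B6 ES and 198, 189 and 108 in the MEFs. In both classes every MEF was above every iPS clone, also per M filtered tags. Members with word 1 or 2 that had a peak in the sample showed a median of 51 to 93 tags in the iPS clones, 62 in B6 ES and 50, 46 and 31 in the MEFs, with every MEF below every iPS clone on both scales. The corresponding fold enrichments were 20.3 to 23.5 in the iPS clones, 17.7 in B6 ES and 13.01, 12.91 and 8.16 in the MEFs. For word 4 they were 12.6 to 15.1 in the iPS clones, 12.7 in B6 ES and 15.2, 15.1 and 13.3 in the MEFs, which overlapped. The directions in tag counts were not particular to the members. Over all carried regions with word 4, median tags were 40 to 93 in the iPS clones and 296.5, 240 and 165 in the MEFs. With word 3 they were 20.5 to 51.5 and 296, 263.5 and 201. With word 1 or 2 they were 72 to 126 and 71, 63 and 40.

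**Figure D4:**
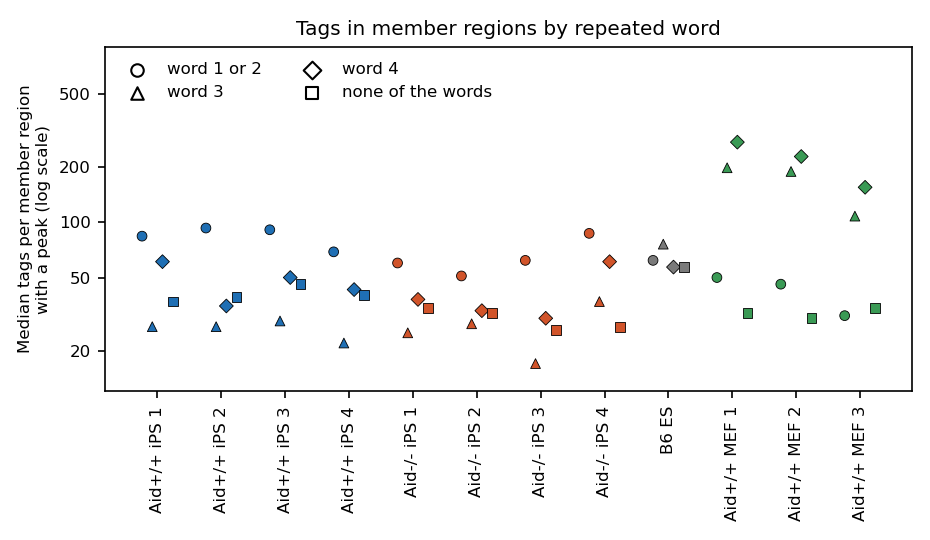
Median tags per member region with a peak (vertical axis, log scale) in the 8 iPS clones, B6 ES and 3 MEFs, by the word held (circles, word 1 or 2; triangles, word 3; diamonds, word 4; squares, none). Word 3 and 4 medians are 108 or more in every MEF and at most 61 in every iPS clone, while word 1 or 2 medians are 31 to 50 in the MEFs and 51 to 93 in the iPS clones.

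The 4 members with the smallest adjusted p among those higher in MEFs all held word 3. The member nearest to Pcdh7, which encodes a protocadherin (chr5:59115759-59118249, 595.7 kb away), had 21, 16, 29 and 12 tags in the Aid+/+ iPS clones and 461, 401 and 293 in the MEFs, a log2 change of 4.99 (SE 0.21, adjusted p = 1.6e-08 by edgeR). The member near Robo2, which encodes an axon guidance receptor (chr16:73680720-73682860, 210.8 kb away), had 29, 14, 22 and 19 tags against 326, 231 and 186, a log2 change of 4.24 (SE 0.22, adjusted p = 2.8e-08 by edgeR). All MEFs were above all iPS clones at both. A member in an intron of Sncaip, which encodes a synuclein-interacting protein, and 1 that lay 161.7 kb from Pcmtd1 (chr1:7324386-7325932) rose by 4.26 and 3.56 (edgeR adjusted p = 2.0e-08 and 3.0e-08). On fold enrichment with limma the changes at Pcdh7, Robo2 and Pcmtd1 were 0.38, 0.63 and 0.18, with adjusted p = 0.122, 0.0845 and 0.584, and that at Sncaip was 0.93 with adjusted p = 0.011. All 4 had copy numbers of 1550 to 2994. With the header totals as library size their changes were 3.13 to 4.55.

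The 4 members with the smallest adjusted p among those lower in MEFs held none of the words. The member 10.8 kb from Vmn1r149, which encodes a pheromone receptor (chr7:23210086-23212202, copy number 9), had 201, 221, 252 and 183 tags in the Aid+/+ iPS clones and 47, 37 and 36 in the MEFs, a log2 change of -1.74 (SE 0.22, edgeR adjusted p = 4.6e-05). The member nearest to Cdh10, which encodes a cadherin (chr15:19715516-19716542, 772.0 kb away), had 133, 107, 136 and 84 tags against 29, 31 and 19, a log2 change of -1.43 (SE 0.23, edgeR adjusted p = 0.00028). All MEFs were below all iPS clones at both. Members 210.0 kb from Pcdh17 (chr14:84632772-84634016) and 0.683 kb from 1700014D04Rik (chr13:59842022-59843569) fell, with log2 changes of -1.33 and -1.49 (edgeR adjusted p = 0.00030 and 0.00035). On fold enrichment with limma, the change at Pcdh17 was -0.67 with adjusted p = 0.109, and the other 3 passed.

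The same regions were compared between Aid-/- and Aid+/+ iPS cells, to ask whether the disruption of Aid changed their methylation signal. Genotype was not used by the rule, and all 10763 members had a peak in each of the 8 clones and were tested among 50635 regions. By the sample titles, the clones of a genotype come in pairs of the same clone series, the number that opens a clone's name. Only 1 series holds both genotypes, so that genotype and series cannot be fully told apart. No member passed an adjusted p under 0.05 in edgeR, against 1 of all regions (0.00197%), and 444 members (4.13%) had an unadjusted p under 0.05, against 3.46% of all regions. DESeq2 called 8 members (0.0743%), all lower in Aid-/- iPS cells, against 24 of all regions tested (0.0474%). The median log2 change of the members was 0.00. By word, the median was 0.06 for word 1 or 2, 0.42 for the 19 members with word 3, 0.20 for the 53 with word 4 and -0.02 for the rest, and edgeR called none in any class.

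The 3 members of smallest p between genotypes lay on chromosome 7 near vomeronasal receptor genes, which encode pheromone receptors. The member 5.46 kb from V1rd19 (chr7:24794276-24796012, copy number 1) had 214, 180, 219 and 162 tags in the Aid+/+ clones, 77, 41, 54 and 66 in the Aid-/- clones and 133 in B6 ES. The groups did not overlap, with a log2 change of -1.26 (SE 0.19) and an adjusted p = 0.0725 by edgeR, 5.5e-05 by DESeq2 and 1.00 by limma on fold enrichment, where the change was -0.18. The member 30.4 kb from Gm4133 (chr7:20886420-20888621, copy number 67) had 333, 382, 347 and 237 tags against 141, 91, 86 and 155, a log2 change of -1.03 (SE 0.19, edgeR adjusted p = 0.318). On fold enrichment its change was 0.06, in the other direction. The member 13.7 kb from Vmn1r122 (chr7:21903943-21905125, copy number 2) had 146, 134, 122 and 71 tags against 52, 35, 30 and 43, a log2 change of -1.12 (SE 0.21, edgeR adjusted p = 0.321).

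All 8 members called by DESeq2 lay between positions 19000001 and 25000000 of chromosome 7, a stretch chosen after these values were seen and described without a test. Of its 59 members, 52 were lower in Aid-/- iPS cells, with a median log2 change of -0.73, and 39 had an unadjusted edgeR p under 0.05. Among the other 10704 members the median was 0.00 and 405 had such a p. Of all 183 tested regions of the stretch, 148 were lower and 83 had such a p, with a median of -0.43. The lower counts were thus not particular to the members. The 59 members held 0.989, 0.934, 0.883 and 0.767% of all member tags in the Aid+/+ clones and 0.527, 0.487, 0.515 and 0.621% in the Aid-/- clones. The genotypes did not overlap, but only 1 clone series held clones of both. B6 ES had 0.727%. The MEFs had 0.861, 0.533 and 0.996%, but with a peak at only 41, 36 and 20 of the 59 members. Every iPS clone had a peak at all 59, so the MEF shares are not comparable with those of the clones. Only 1 processing run held clones of both genotypes, with 1 Aid+/+ clone and 3 Aid-/- clones, and within it 48 of the 59 members were lower, with a median of -0.68, a description that rests on 1 Aid+/+ clone. On fold enrichment 44 were lower, with a median of -0.20.

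**Figure D5:**
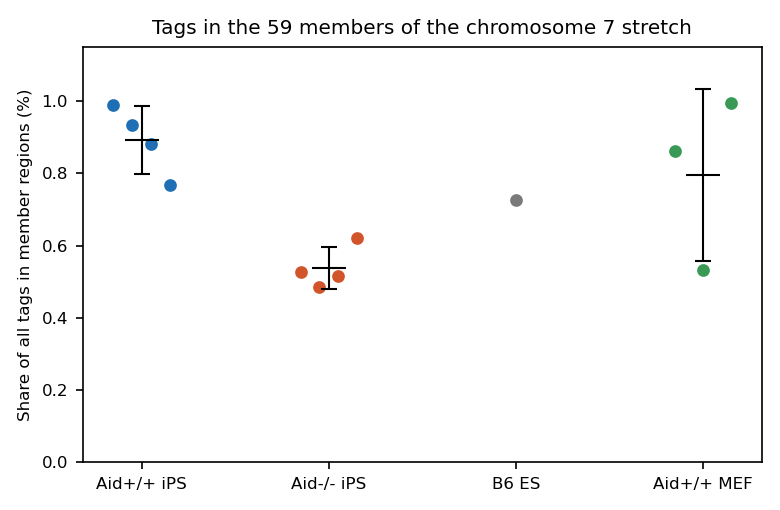
Tags in the 59 members of the chromosome 7 stretch as a share of all tags in member regions (vertical axis, %), 1 point per sample, with the mean and SD where a group has several samples. The Aid+/+ iPS clones lie at 0.767 to 0.989%, the Aid-/- iPS clones at 0.487 to 0.621%, B6 ES at 0.727% and the MEFs at 0.533 to 0.996%. The MEFs had a peak at only 41, 36 and 20 of the 59 members, so their shares are not comparable with those of the clones.

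The members, like the carried regions as a whole, lay mostly outside promoters. Of the B6 ES summits of the members, 48.3% were intergenic, 29.8% in introns, 19.4% in exons and 2.37% (255) in promoters, taken as 1000 bp before to 200 bp after the start of a protein-coding gene. For all carried regions these shares were 47.1, 28.0, 23.1 and 1.82%. The share in exons was 32.7% for the regions that only MG1.19 lacked, and the share in promoters was 1.35% for regions shared by all 3 ES lines. Of carried regions with a promoter summit 29.6% were members, compared with 19.1% for exons. In all, 459 members (4.26%) overlapped a promoter, against 3.52% of the carried regions.

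The strongest member over a promoter belonged to Sidt2, which encodes a lysosomal membrane protein (chr9:45747854-45750021), with 161 to 342 tags in the iPS clones (median 273), 309 in B6 ES and 400, 306 and 458 in the MEFs. The MEF counts lay in the upper range of the iPS clones or above it, but per M filtered tags the MEFs (17.5 to 25.1) overlapped the iPS clones (19.8 to 31.1). At Prpf18, which encodes a splicing factor (chr2:4574119-4575089), the iPS clones had 136 to 290 tags (median 246), B6 ES 296 and the MEFs 121, 142 and 70. MEF replicates 1 and 3 were below the lowest iPS clone there, and all 3 MEFs were per M filtered tags (3.84 to 8.11, against 10.9 to 29.3). At Drd5, which encodes a dopamine receptor (chr5:38710249-38712596), the iPS clones had 104 to 181 tags (median 156.5), B6 ES 252 and the MEFs 88, 137 and 63. B6 ES had the highest count but, per M filtered tags, lay within the iPS range (16.3, against 8.94 to 18.1). On that scale the MEFs (3.46 to 7.82) were below all iPS clones. The other 5 of the 8 strongest were at Gm17492, Arl9, Gm16686, Tmem174 and Gm9931, with medians of 102.5 to 206.5 tags in the iPS clones. Gm17492 and Gm9931 held word 1 or 2, with copy numbers of 3440 and 2822.

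Members were spread over all autosomes, at 15.6% of carried regions on chromosome 8 and 16.5% on chromosome 11, up to 26.3% on chromosome 3. In 941 windows of 1 Mb with at least 20 carried regions the share ranged from 0 to 64.3%, with a median of 21.7%. The window of largest share, 88000001 to 89000000 of chromosome 4 (18 of 28 regions), covers the type I interferon gene cluster, which encodes antiviral cytokines. Of its 18 members, 11 lay in a row at copy numbers of 11 to 14 from Gm13290 to Gm13288, among them an exon of the interferon gene Ifnz, and 1 lay in an exon of Ifne. The next were 12000001 to 13000000 of chromosome 18 (16 of 27), with 5 members in Lama3, which encodes a laminin chain, and 3 in Cables1, and 174000001 to 175000000 of chromosome 1 (15 of 26), with 3 members of copy numbers 2175 to 3111 near the pentraxin genes Crp and Apcs. The median strength of carried regions in the 3 windows was 134.6, 109.0 and 160.4.

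Genes of several families were read from lists over the gene body and 2 kb upstream, and each share is set against the 22.7% of all carried regions. Developmental regulators, which are transcription and signalling factors of lineage choice, had 81 members among 222 carried regions (36.5%), and 11 of 76 at a strength of 200 or more, where 8.41% of all carried regions were members. The strongest 2 lay in introns of Fgf14, a fibroblast growth factor relative that acts on sodium channels, and were of high copy number. KRAB and other zinc finger genes, many of whose products silence retroelements, had 59 of 364 (16.2%), imprinted genes 17 of 110 (15.5%) and olfactory receptor genes 6 of 62 (9.68%). Adhesion genes had 45 of 199 (22.6%), cytochrome P450 genes 10 of 44 (22.7%), germline genes 11 of 49 (22.4%), genes of the DNA methylation machinery 8 of 46 (17.4%) and vomeronasal receptor genes 7 of 46 (15.2%). No test was made over the lists, and the median strengths of their carried regions differed, from 99.9 in pluripotency genes to 262.9 in olfactory receptor genes.

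Both carried regions at Hox genes were members, at the promoter of Hoxa7 and near Hoxb4, genes of body axis patterning. The Hoxa7 member (chr6:52169717-52171257) had 124, 73, 117 and 80 tags in the Aid+/+ iPS clones, 110, 87, 67 and 101 in the Aid-/- iPS clones, 174 in B6 ES and 40, 84 and 28 in the MEFs, so that B6 ES was the highest sample. Per M filtered tags the MEFs (1.54 to 4.80) were below all iPS clones (6.28 to 10.3). The MHC genes, which encode antigen-presenting proteins, had 6 members of 10, the strongest in an exon of H2-T23 (chr17:36168305-36169581), with 69 to 168 tags in the iPS clones, 144 in B6 ES and no peak in any MEF. Protocadherin clusters had 11 of 31, serpins and kallikreins 8 of 19, and natural killer receptors 5 of 10. The last list took in Klraq1, which is no receptor of that kind.

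The germline, pluripotency and fibroblast lists are given with the MEF state of their members. Of the 11 germline members, 9 had a peak in all 3 MEFs, against 19.5% of all members. A strength of 200 or more was found for 4 of the 11. Of all members at a strength of 200 to 300, 34.4% had a peak in all 3 MEFs, and the part of strength in the germline count was not tested. Sohlh2, a transcription factor gene of early germ cells (chr3:54985468-54987459), had 122, 74, 107 and 98 tags in the Aid+/+ iPS clones, 124, 99, 63 and 123 in the Aid-/- iPS clones, 245 in B6 ES and 294, 239 and 209 in the MEFs. The MEF counts were above those of all iPS clones, but per M filtered tags the MEFs (11.477 to 14.998) overlapped the iPS clones (6.36 to 11.6). Smc1b, which encodes a meiotic cohesin (chr15:84946947-84947784), had 34 to 78 tags in the iPS clones, 111 in B6 ES and 59, 43 and 26 in the MEFs. Per M filtered tags the MEFs (1.43 to 3.01) were below all iPS clones (3.35 to 6.11). Pluripotency genes had 2 members among 5 carried regions. They lay in an intron of Esrrb (chr12:87720456-87721342) and an exon of Klf4 (chr4:55540606-55541347), and had no MEF peak, as did 35.8% of all members. The Klf4 member had 10 to 56 tags in the iPS clones, which carry retroviral Klf4, and 24 tags in B6 ES, whose labels name no transgene. Fibroblast genes had 6 members among 51 carried regions (11.8%). None of the 6 had a peak in all 3 MEFs, against 19.5% of all members. The 6 were weak, with a strength of at most 99.3. Of all members, 9.99% at a strength of 50 to 75 and 10.7% at 75 to 100 had a peak in all 3 MEFs, so that this count does not set the list apart. The strongest of the 6 lay over the promoter of Col1a1 (chr11:94797205-94798135), with 62, 20, 23 and 25 tags in the Aid+/+ iPS clones, 52, 38, 24 and 25 in the Aid-/- iPS clones, 66 in B6 ES and no peak in the MEFs.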

How the data were processed

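MBD-seq peak lists of 14 samples were used, 1 list per sample with no pooling. Per the labels and file headers, the authors mapped tags to NCBI build 37 (mm9) with BWA 0.5.9rc1 after CASAVA 1.8.1, and called peaks with MACS (1.4.1 in 9 samples, 1.4.0rc2 in 5, the ES lines among the latter) without a control at a p cutoff of 1e-05. The handling of tags that map to several copies is not given in the sources used here. The authors deposited, as MACS wrote them, the count of tags per peak, the p-value as −log10 multiplied by 10, and the fold enrichment over local background, a ratio. Every deposited peak had at least 10 tags and a significance of at least 50. Processing runs were told apart by the run name and MACS version in the file headers.

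Peaks were joined across samples at an overlap of 1 bp. Tags of a sample's peaks were summed per region and tested with edgeR 4.0.16 (R 4.3.3, quasi-likelihood, TMM), BH-adjusted over all regions holding a peak of every sample compared. DESeq2 1.42.0 and limma 3.58.1 were alternatives. The code was tested on simulated data. Genes came from GENCODE for build 37, and words and copies were searched on both strands of its sequence with pysam 0.24.0. Replicate numbers follow sample order. Per the methods, MEFs were established from single embryos and clones were picked from several experiments, but the labels do not say which samples share an embryo, so p-values measure the spread between these samples. Clones of the same series may not be independent, and the tests without a block treat them as if they were. Tags per M filtered tags were computed for the named members after seeing the data. Pairs of samples within a group shared at most 0.00113% identical peaks over 16 pairs.

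Members named were, by a fixed rule, the 8 of highest strength, the 2 weakest and 2 just outside (1 of the latter is not reported here), the 8 strongest over promoters, the 3 of smallest p between genotypes, the 4 of smallest adjusted p in each direction between MEFs and iPS cells, the 3 windows of largest share, and the strongest 2 per gene list. The chromosome 7 stretch and the words were chosen after values were seen, and the members, lists and rule with earlier results of these data known.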

Additional observations from a re-analysis of the deposited data

Results flagged for a closer look

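In 12 comparisons of medians within groups of 4 clones, 2 values stood apart by a gap to the nearest clone, as a share of the group's range, over the critical value of Dixon's test. Chance alone does so in about 1 in 20 groups. The median fold enrichment of the members was 15.4 in Aid-/- iPS replicate 4, against 19.79, 19.99 and 20.15 in the other Aid-/- clones. This clone also had the fewest autosomal peaks of the iPS clones (65859), and leaving it out raised the number of members to 13567. The median fold enrichment of members holding word 1 or 2 was 23.47 in Aid-/- iPS replicate 3, against 20.91, 20.94 and 21.1 in the others. This clone had the fewest filtered tags of all samples (6.65 M) and was the only iPS clone of its processing run. Whether these features play a part was not tested.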

How the results depend on the processing

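The number of members moved with the limits set on peaks and with the 129 lines used. It was 10763 as reported, 5173 with a significance of at least 100 in the 9 carrying samples, and 2113 with the same number of peaks in every sample. Leaving out 1 iPS clone or 129 line gave 10844 to 24497, the highest without RF8. Filters on fold enrichment, a margin of 1 kb, joining over 200 bp and the common stretch gave 7618 to 11318. Between genotypes, 1 region was called over all tested, and 24 by DESeq2, 0 by limma, 0 with the clone series as a block, 0 within the run of both genotypes (added after seeing the data) and 0 to 11 on leaving out 1 clone. Members called were 0, 8 by DESeq2 and 0 to 4 on leaving out 1 clone, with 4 without Aid+/+ iPS replicate 1. The change at Gm4133 reversed to 0.0606 on fold enrichment. Between MEFs and iPS cells, members higher were 706, 376 with header totals, 96 by limma and 586 to 735 on leaving out 1 sample. Members lower were 389, 673 by limma and 187 to 513 on leaving out 1 sample, with 187 without MEF replicate 3, 250 without MEF replicate 1, and 253, 242 and 247 without Aid+/+ iPS replicates 2, 3 and 4. No cause of these shifts was tested. No paired analysis was possible because replicate numbers only name samples, and the clone series of the titles was used as a block instead. With that block, the genotypes are compared only within the 1 series that holds both.

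Depth and the limits of the caller bound what the absence of a peak shows. A region under the limit of 10 tags or a significance of 50 in a 129 line is not shown to lack methylation, and tags of regions without a peak were not analysed here. B6 ES is a single line, and the 3 ES lines differ in strain, origin and share of tags in peaks. Tags of high-copy regions cannot be assigned to 1 copy.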
